A study of Mus musculus with 4 samples.

Results

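The measurements described here are those of RefSeq noncoding RNA probes in MC3T3-E1 cells, a mouse osteoblastic line, with and without inhibitors of glucosylceramide synthase, the enzyme that makes glucosylceramide from ceramide. A probe was included when its RefSeq accession began with NR_ (curated noncoding transcripts) or XR_ (transcripts predicted by computation) and when the scanner software called its signal well above background on all 4 arrays. Of 5026 such NR_ or XR_ probes, 1515 met the rule (30.1%), 874 with an NR_ and 641 with an XR_ accession. By comparison, 55.7% of all 56605 non-control probes and 66.4% of probes for protein-coding NM_ transcripts did so. A symbol could be given to 966 of the 1515 probes, which stood for 910 genes, and 549 probes had none.

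The 4 groups were untreated cells (Control) and cells given 50 µM Miglustat, 10 µM D-PDMP or 1.0 µM D-PPMP, with 1 array each. Treated cells were replated 4 days after treatment and harvested 24 h later, and Control cells were cultured for the same 24 h after plating. Miglustat is an iminosugar, whereas D-PDMP and D-PPMP resemble ceramide and differ from each other in the length of the fatty acyl chain. Their doses differed, so values of the 3 inhibitors are set side by side without a comparison between them. Each inhibitor was set against the same Control array, so the 3 comparisons are not independent of each other. With 1 array per group no test was possible, and no value has a replicate check. All arrays lay on a single slide in the order of the groups, so slide position and treatment cannot be told apart.

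Noncoding RNAs act in several ways. Some long noncoding RNAs silence neighbouring genes on the chromosome from which they are transcribed, as Kcnq1ot1 and Airn do in imprinted domains, where only the maternal or the paternal copy of a gene is active. Others organise nuclear bodies (Neat1), carry microRNA hairpins (Mir22hg, Dnm3os) or small nucleolar RNAs in their introns (the Snhg genes), or are themselves parts of the splicing, RNA-processing and telomerase machinery. In cells of the osteoblast lineage, microRNAs cut from such hosts, among them those of the Dnm3os transcript, are known regulators of differentiation.

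The mature microRNAs encoded within the host transcripts on which the results turn are shown from RefSeq (GRCm38.p6), 5′ to 3′, with the seed (bases 2 to 8), the stretch that pairs with target RNAs, in capitals. H19 hosts miR-675, Mir22hg hosts miR-22, Dnm3os hosts miR-199a and miR-214, and Mir100hg hosts miR-100 and miR-125b. D7Ertd143e holds a cluster in which miR-294-3p and miR-295-3p share the seed AAGUGCU, and miR-292a-5p and miR-293-5p share CUCAAAC. The array measured the hosts, not these microRNAs.
miR-675-5p: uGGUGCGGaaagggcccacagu
miR-675-3p: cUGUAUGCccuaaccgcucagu
miR-22-3p: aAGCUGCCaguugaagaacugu
miR-199a-3p: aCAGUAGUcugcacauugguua
miR-214-3p: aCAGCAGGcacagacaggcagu
miR-100-5p: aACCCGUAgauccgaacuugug
miR-125b-5p: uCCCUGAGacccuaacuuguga
miR-294-3p: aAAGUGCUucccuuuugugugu
miR-295-3p: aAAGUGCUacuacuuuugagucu
miR-292a-5p: aCUCAAACugggggcucuuuug
miR-293-5p: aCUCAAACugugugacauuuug

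Promoters are shown for Kcnq1ot1, Mir22hg and Smc2os, as examples of RNAs described below whose probes were higher with all 3 inhibitors. They were picked after the motif matches were known. Each window runs from 250 bases before to 50 bases after the transcript's start (RefSeq, GRCm38.p6), on the transcript's own strand. Capitals mark CCAAT boxes (CCAAT, or ATTGG on the other strand) and GC boxes (GGGCGG, or CCGCCC). The Kcnq1ot1 window lies at chr7:143296498-143296797 on the minus strand, that of Mir22hg at chr11:75461289-75461588 on the plus strand, and that of Smc2os at chr4:52438915-52439214 on the minus strand.
Kcnq1ot1: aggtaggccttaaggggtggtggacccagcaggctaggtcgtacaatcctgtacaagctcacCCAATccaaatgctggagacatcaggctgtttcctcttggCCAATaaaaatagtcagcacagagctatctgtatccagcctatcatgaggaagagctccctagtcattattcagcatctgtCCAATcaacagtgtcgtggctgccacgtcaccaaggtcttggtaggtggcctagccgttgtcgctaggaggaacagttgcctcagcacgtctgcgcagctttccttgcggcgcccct
Mir22hg: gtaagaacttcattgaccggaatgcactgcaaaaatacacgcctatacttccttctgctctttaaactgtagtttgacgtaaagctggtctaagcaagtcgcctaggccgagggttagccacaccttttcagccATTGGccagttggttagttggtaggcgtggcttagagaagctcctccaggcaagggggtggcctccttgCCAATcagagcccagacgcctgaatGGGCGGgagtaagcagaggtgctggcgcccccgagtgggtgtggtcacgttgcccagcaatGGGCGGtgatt
Smc2os: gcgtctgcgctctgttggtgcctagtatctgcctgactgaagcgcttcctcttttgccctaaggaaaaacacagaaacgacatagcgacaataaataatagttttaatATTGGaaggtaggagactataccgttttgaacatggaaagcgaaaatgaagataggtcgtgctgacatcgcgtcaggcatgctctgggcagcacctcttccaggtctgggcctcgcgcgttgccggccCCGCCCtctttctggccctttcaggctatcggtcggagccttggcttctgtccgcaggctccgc

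The Kcnq1ot1 window held 3 CCAAT boxes and no GC box, the Mir22hg window held 2 of each, and the Smc2os window 1 of each. The windows of Phxr4 and Gm20199, which were also higher with all 3 inhibitors and are not shown, held 0 matches to any motif searched. CCAAT occurred on either strand in 37.4% of all 32817 promoter windows in the table and in 38.2% of the 694 windows of the measured noncoding genes. GGGCGG occurred in 35.6% and 40.9%, the TATA box TATAAA in 13.6% and 11.96%, the E-box CACGTG in 7.15% and 9.22%, the AP-1 motif TGANTCA in 7.81% and 7.49%, and the cyclic AMP response element TGACGTCA in 1.79% and 3.03%. None of the last 4 motifs was found in the 3 windows shown. A match describes the letters of the window only.

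Levels are given as log2 of the processed signal relative to the 75th percentile of the array, so that a level of 0 is that percentile. The array's 75th percentile was a signal between 183 and 191. The noncoding probes were dim: their median level over the 4 arrays was -2.63, against -0.52 for all 31518 probes well above background on every array, and 74.1% lay at or below the latter. A ratio is the difference of 2 such levels, inhibitor minus Control, and the value after ± is the scanner software's own error of that ratio, which covers measurement within the arrays and not differences between cultures. Its median over the 1515 probes was 0.22 in each comparison. Over the 393 noncoding probes brighter than the median of all probes it was 0.20 in each, so for them it acted much like a fixed cut. The 9 noncoding probes with several spots had a median standard deviation between spots of 0.03 on each array, on the log2 scale. Among the osteoblast markers examined, Runx2, Sp7, Col1a1, Col1a2 and Spp1 were well above background on every array, and Alpl and Ibsp, the alkaline phosphatase and bone sialoprotein genes, on none. None of 4 muscle markers was above background on any array. Above it on every array were 3 of 4 epithelial markers (Cdh1, Krt5 and Krt14), 2 of 5 macrophage, 1 of 4 endothelial, 2 of 4 adipocyte and 2 of 4 chondrocyte markers. The summed level of the chondrocyte markers, in multiples of the 75th percentile, was 68.0 in Control and 88.4, 56.6 and 53.8 with the inhibitors, and the epithelial sum ran from 7.09 with Miglustat to 10.98 with D-PDMP. The part of these markers in the results was not tested.

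Most noncoding RNAs measured stayed close to their Control level. Within 1.5-fold of Control lay 94.98% of the probes with Miglustat, 94.3% with D-PDMP, and 91.1% for D-PPMP, beside 96.6%, 96.1% and 94.0% of all probes. The median log2 ratios were 0.01, 0.01 and 0.06 in the same order, beside -0.01, 0.02 and 0.02 for all probes. After quantile normalization, which gives all arrays the same distribution, the medians were -0.03, -0.03 and -0.02, so the sign of this small shift depended on the scaling. The dim probes carried it. Among the 1122 noncoding probes at or below the median level of all probes, the medians were 0.04, 0.02 and 0.11, and those of all dim probes were 0.04, 0.04 and 0.10. Among the 393 brighter noncoding probes they were -0.05, -0.01 and -0.00, and no brighter probe differed 2-fold from Control.

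With Miglustat 5 of the 1515 probes were at least 2-fold higher than Control, where 0.203% of all probes were, and 0 were at least 2-fold lower, where 0.127% were. With D-PDMP 5 were higher (background 0.26%) and 1 was lower (background 0.108%). With D-PPMP 10 were higher (background 0.669%) and 3 were lower (background 0.143%). As shares of the 1515 probes these were 0.33%, 0%, 0.33%, 0.066%, 0.66% and 0.198%. All of these calls fell among the 1122 noncoding probes at or below the median level of all probes. Of all 15759 probes at or below that level, 56, 77 and 203 were higher with Miglustat, D-PDMP and D-PPMP, and 33, 30 and 36 lower. After quantile normalization the counts with Miglustat were 3 higher and 0 lower, beside 0.136% and 0.162% of all probes. With D-PDMP they were 1 and 4, beside 0.124% and 0.213%, and with D-PPMP 4 and 6, beside 0.241% and 0.333%. The majority of 2-fold differences with D-PDMP and D-PPMP was therefore upward under one scaling and downward under the other.

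A looser rule, chosen after the data were seen, counted probes whose ratio exceeded 2 times its error. With Miglustat 75 noncoding probes were higher by this rule (4.95%, background 3.89%) and 36 lower (2.38%, background 1.78%). With D-PDMP 93 were higher (6.14%, background 4.42%) and 36 lower (2.38%, background 1.81%). With D-PPMP 165 were higher (10.9%, background 7.32%) and 28 lower (1.85%, background 2%). The noncoding probes are dimmer than all probes, and for this looser rule no background matched on level was computed.

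**Figure D1:**
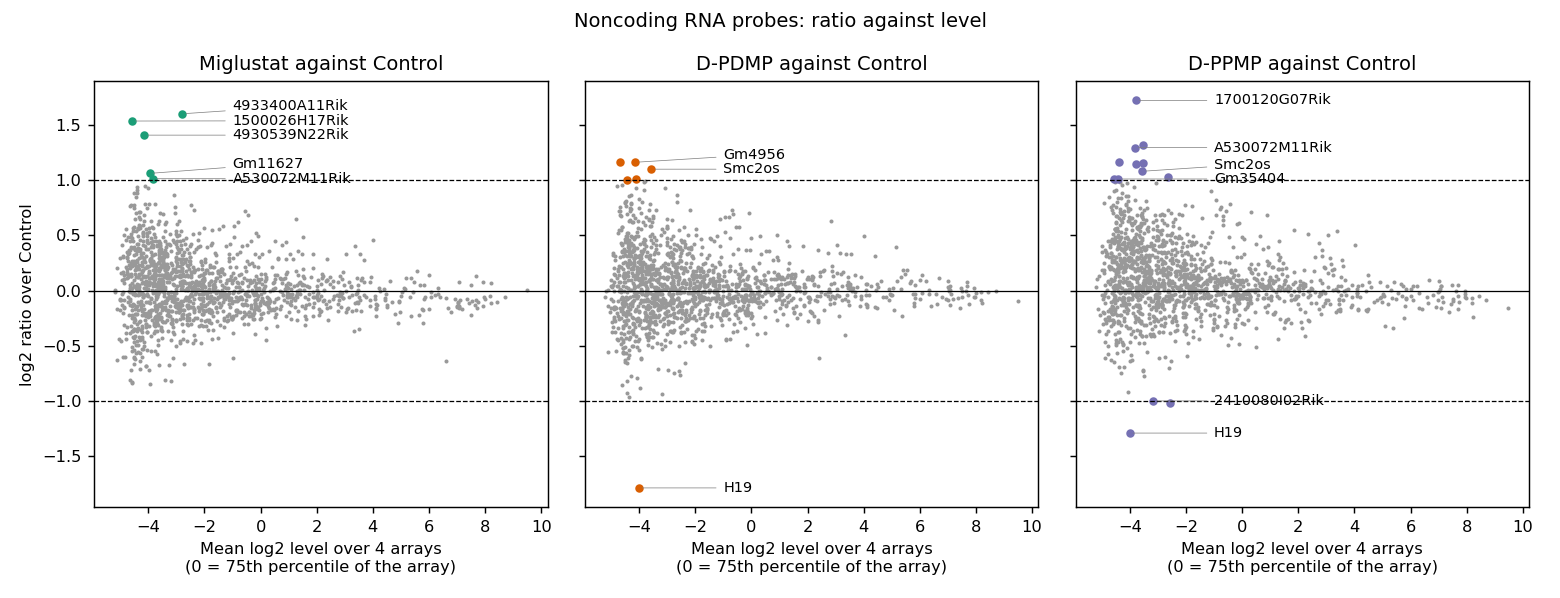
Log2 ratio of each of the 1515 noncoding probes over Control (vertical axis) against its mean log2 level on the 4 arrays (horizontal axis), 1 panel per inhibitor. Coloured points are at least 2-fold from Control (dashed lines) and those with a symbol are named; all lie at the dim left side, at mean levels of -2.57 or below.

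The probes at least 2-fold from Control with any inhibitor numbered 21, of which 11 had a symbol. Their mean levels ran from -4.67 to -2.57, and 20 of the 21 lay at or below the median of the noncoding probes. Of the 21, 18 passed 2-fold with 1 inhibitor, 3 with 2 and 0 with all 3, and 11 also passed it in the same comparison after quantile normalization. None passed it after normexp background correction, whose offset of 50 lay above the median signal of the noncoding probes (28.3 to 31.9 by array); H19 was then -0.38 with D-PDMP and -0.30 with D-PPMP.

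H19, the maternally expressed imprinted RNA on chromosome 7 that hosts miR-675, was the named RNA furthest below Control. Its single probe had a level of -3.18 in Control and of -3.42 with Miglustat, while D-PDMP gave -4.97 and D-PPMP -4.47. The D-PDMP and D-PPMP arrays lay below Control by more than 2 errors, and the Miglustat array did not. The log2 ratio was -0.24 ± 0.23 with Miglustat, -1.79 ± 0.32 with D-PDMP, which is 3.46-fold lower, and -1.29 ± 0.27 with D-PPMP, which is 2.45-fold lower. After quantile normalization the ratios were -0.30, -1.90 and -1.51. The signals behind them were small, 20.2, 17.8, 6.04 and 8.49 in the order of the groups above.

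The coding gene Igf2, which encodes insulin-like growth factor 2 and lies beside H19, was examined after H19 had been seen. Its probe above background on every array had levels of -1.56, -1.86, -4.25 and -3.14 in the same order. Its log2 ratios were -0.31 ± 0.21, -2.69 ± 0.25 and -1.58 ± 0.22. A second Igf2 probe was above background in Control and with Miglustat only, with a ratio of -0.18 ± 0.29 between them. With D-PDMP and D-PPMP its signal was not well above background. The ratios of those signals to Control were -2.06 ± 0.61 and -1.91 ± 0.56, and they are not bounds. Igf2os, the transcript antisense to Igf2, was not lower: its levels were -4.28, -3.84, -3.97 and -3.97, and its ratios 0.43 ± 0.28, 0.31 ± 0.28 and 0.30 ± 0.28. Under normexp correction they were -0.02, -0.0033 and -0.02.

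Kcnq1ot1, the paternally expressed RNA that is antisense to Kcnq1 and silences neighbouring genes, was higher than Control with every inhibitor at each of its 4 measured probes. The array's remaining Kcnq1ot1 probe was above background on no array. The brightest probe had a level of 2.07 in Control, and Miglustat gave 2.35, D-PDMP 2.43 and D-PPMP 2.58, giving ratios of 0.29 ± 0.20, 0.37 ± 0.20 and 0.51 ± 0.20. The next brightest, with levels of 1.53, 1.86, 1.93 and 2.08, gave 0.33, 0.40 and 0.55. The other probes gave 0.45, 0.15 and 0.39, and 0.13, 0.47 and 0.66. None reached 2-fold. The 4 probes share the same RNA and array and are not replicates of the treatment.

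Among the coding genes around Kcnq1ot1, the brighter of the 2 Cd81 probes had ratios of 0.02, 0.02 and -0.05. The Slc22a18 probe above background on every array had -0.23 ± 0.34, -0.34 ± 0.35 and 0.47 ± 0.30. The Kcnq1 probe above background on every array had -0.26 ± 0.36, -0.54 ± 0.39 and -0.33 ± 0.37. The probes of Cdkn1c and Phlda2, maternally expressed growth-restraining genes of the domain, were above background on no array.

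Of the 16 imprinted RNAs listed 8 were measured, with median ratios of 0.19, 0.04 and 0.38. After quantile normalization the medians were 0.20, -0.08 and 0.20, so the value with D-PDMP changed sign. Higher than Control were 5, 4 and 6 of the 8, where 48.5%, 53.9% and 55.1% of all probes were, and H19 was the only one past 2-fold. Airn, which is antisense to Igf2r, had ratios of 0.33, 0.21 and 0.46 (each ± 0.20), while the receptor gene Igf2r had -0.04, 0.08 and -0.04. Mirg, a maternally expressed RNA on chromosome 12 whose span holds 10 microRNA hairpins, had levels of -1.76, -2.43, -1.63 and -1.48. It was lower with Miglustat alone, at -0.66 ± 0.21, against 0.14 and 0.28 with D-PDMP and D-PPMP. Rian, from the same domain, was close to background and had 0.51 ± 0.36, -0.06 ± 0.40 and 0.51 ± 0.36. Peg13, transcribed from within Trappc9, had 0.09, -0.27 and -0.28. The 4 probes of Meg3, the first RNA of the chromosome 12 cluster, and that of Xist were above background on no array.

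**Figure D2:**
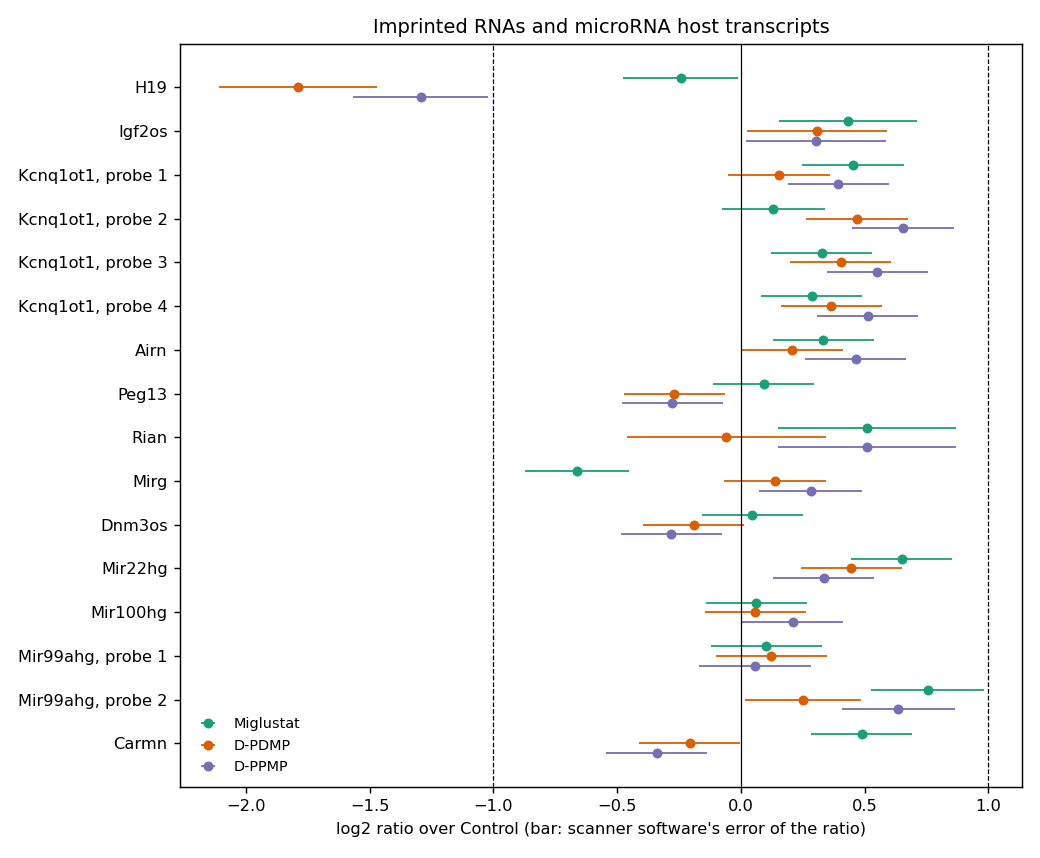
Log2 ratio over Control (horizontal axis) for imprinted RNAs and microRNA host transcripts, 1 row per probe and 1 point per inhibitor. Bars are the scanner software's error of the ratio and dashed lines mark 2-fold; H19 lies at -1.79 and -1.29 with D-PDMP and D-PPMP, and the 4 Kcnq1ot1 probes all lie right of 0.

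The spans of 15 of the 872 genes examined held 40 microRNA hairpins, 7 of them more than 1. Of these hosts 7, 10 and 9 were higher than Control in the 3 comparisons, where 48.5%, 53.9% and 55.1% of all probes were, with medians of -0.04, 0.05 and 0.08. Mir22hg, whose miR-22-3p sequence is given above, had a level of 0.92 in Control, and Miglustat gave 1.57, D-PDMP 1.36 and D-PPMP 1.25. All 3 treated arrays lay above Control, by 0.65 ± 0.20, 0.45 ± 0.20 and 0.34 ± 0.20, the largest being 1.57-fold. The coding genes Tlcd3a and Wdr81, set beside Mir22hg without positions given here, gave -0.01, -0.00 and 0.13, and -0.16, -0.02 and -0.04.

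D7Ertd143e, the host of the miR-292 to miR-295 cluster known from embryonic stem cells, had levels of -2.86, -2.46, -2.40 and -2.34 and ratios of 0.41 ± 0.22, 0.46 ± 0.22 and 0.53 ± 0.22. Dnm3os, the host of miR-199a and miR-214, had 0.05, -0.19 and -0.28, each within 2 errors. Mir100hg had 0.06, 0.06 and 0.21. Carmn, known as a host of cardiac and smooth muscle microRNAs, had levels of 1.52, 2.01, 1.32 and 1.18. Its ratio was positive with Miglustat, at 0.49 ± 0.20, and negative with D-PDMP and D-PPMP, at -0.21 and -0.34. The 2 probes of Mir99ahg differed: one gave 0.10, 0.12 and 0.06, the other 0.75, 0.25 and 0.64. A230057D06Rik, whose span holds 7 hairpins of the miR-344 family, gave 0.71 ± 0.22 with Miglustat, against 0.02 and -0.12 for the other inhibitors.

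The remaining named RNAs past 2-fold were mostly little-studied transcripts at levels near background. 4933400A11Rik, a transcribed pseudogene, had levels of -3.24, -1.63, -3.17 and -3.09 and stood out with Miglustat alone, at 1.60 ± 0.22 (3.04-fold). 1500026H17Rik gave 1.54 ± 0.31 with Miglustat, against -0.45 and -0.26 with the others. 4930539N22Rik gave 1.41 ± 0.28, against -0.02 and -0.32. Each of these was high on the Miglustat array only.

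1700120G07Rik was high with D-PPMP alone, with levels of -4.06, -4.37, -4.40 and -2.34 and a ratio of 1.73 ± 0.25 (3.31-fold). Smc2os, antisense to the condensin gene Smc2, had levels of -4.20, -3.82, -3.10 and -3.11. It was 2.15-fold higher with D-PDMP and 2.12-fold higher with D-PPMP (each ± 0.26 on the log2 scale), with 0.38 ± 0.27 for Miglustat, which was -0.0025 under normexp correction. After quantile normalization Smc2os was at 0.9998 with D-PDMP and 0.90 with D-PPMP, just under and under 2-fold. The brightest probe of Smc2 itself gave 0.12, 0.08 and 0.03.

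A530072M11Rik was above Control on all 3 treated arrays, by 1.01 ± 0.31, 0.99 ± 0.31 and 1.30 ± 0.30. The pseudogene Gm4956 gave 0.40, 1.16 and 0.86, Gm35404 gave 0.92, 0.40 and 1.01, and Gm11627 gave 1.06, 0.25 and 0.41. 2410080I02Rik was lower on every treated array, with levels of -2.48 in Control and -3.30, -3.43 and -3.49 under treatment, which is 1.77-fold, 1.92-fold and 2.002-fold lower. Of these 5 RNAs, A530072M11Rik with D-PPMP, Gm4956 with D-PDMP and 2410080I02Rik with D-PPMP remained 2-fold from Control after quantile normalization, at 1.07, 1.01 and -1.14.

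Among noncoding probes brighter than their median level, differences shared by all 3 inhibitors were smaller than 2-fold. Those with a symbol were ranked by the least extreme of the 3 ratios. Phxr4 came first, with levels of -1.07, -0.35, -0.49 and -0.35 and ratios of 0.72, 0.58 and 0.72 (each ± 0.21). Gm20199 gave 0.49, 0.67 and 0.82, and Gm19782 gave 0.51, 0.58 and 0.65. Gm20753 had signals of 2315, 3335, 3381 and 3190 in the order of the groups, and ratios of 0.46, 0.49 and 0.42.

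At the other end of this ranking the least extreme ratio was smaller in size than at the top. 9530082P21Rik gave -0.48, -0.38 and -0.36. Rprl1, annotated as an RNase P RNA, gave -0.45, -0.28 and -0.31. Snord33, a small nucleolar RNA, gave -0.24, -0.24 and -0.52, and 9330179D12Rik gave -0.25, -0.77 and -0.64. All 3 ratios of a probe use the same Control value.

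**Figure D3:**
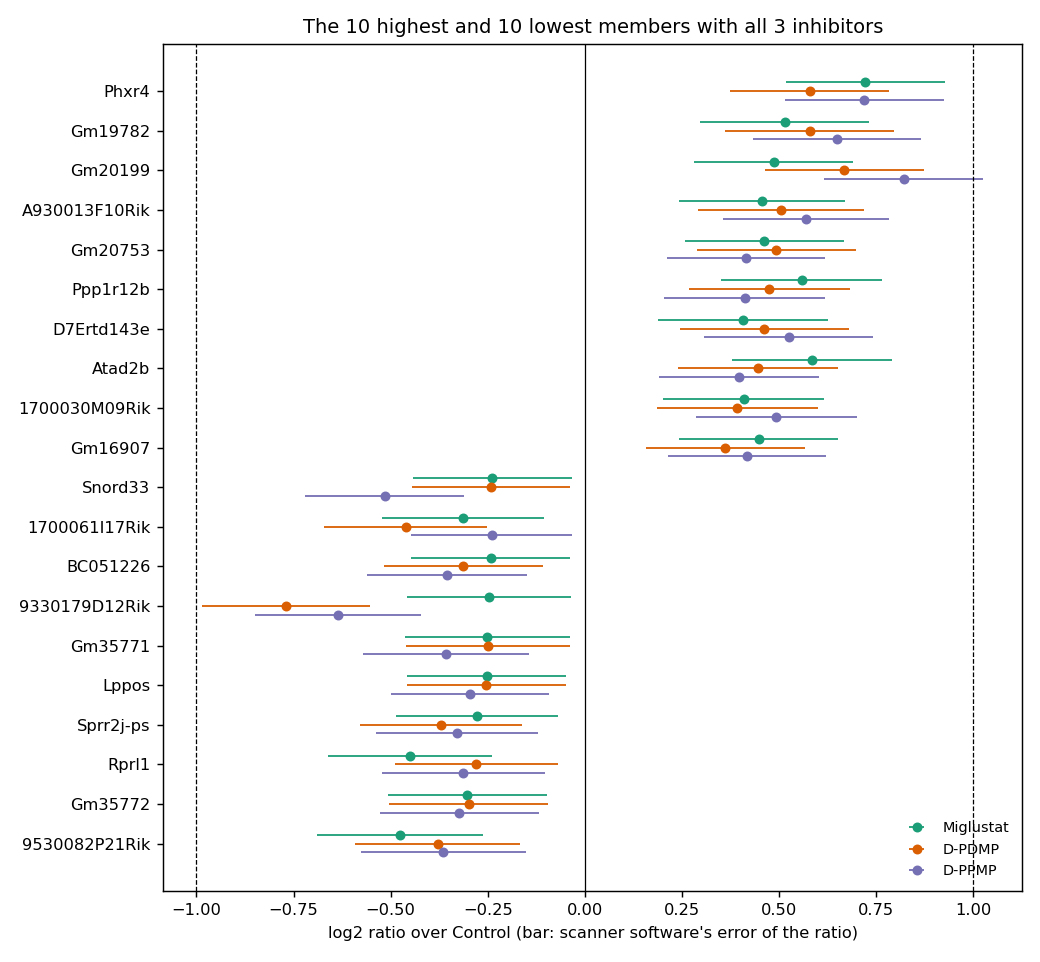
Log2 ratio over Control (horizontal axis) of the 10 highest and 10 lowest named noncoding RNAs by the least extreme of the 3 ratios, among those brighter than the noncoding median. Points are the inhibitors, bars the scanner software's error and dashed lines 2-fold; Phxr4, at 0.58 to 0.72, heads the list and 9530082P21Rik, at -0.48 to -0.36, ends it.

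Most of the measured snoRNA host genes and small structural RNAs differed little from Control. All 15 measured snoRNA host genes, whose introns carry small nucleolar RNAs, lay within 2 errors of Control with each inhibitor, with medians of -0.08, 0.05 and -0.00. Snhg8, for example, gave -0.18, -0.14 and -0.25, and Snhg1 gave 0.06, 0.17 and 0.02. The 13 measured small structural RNAs had medians of -0.14, -0.00 and -0.09. Of these, Rn7sk, which restrains the elongation factor P-TEFb, gave -0.14, -0.14 and -0.15, and Rmrp, the RNA of RNase MRP, gave -0.09, -0.05 and -0.11. Terc, the telomerase template RNA, was the one member of that list beyond 2 errors, at -0.96 ± 0.33 with D-PDMP, with signals of 11.8 in Control and 6.28 with D-PDMP. Its other ratios were -0.34 and -0.37.

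The 10 measured nuclear and architectural RNAs had medians of -0.08, -0.05 and -0.05, and Kcnq1ot1 with D-PPMP was the one value beyond 2 errors. Norad, which binds Pumilio proteins, gave at its brightest probe -0.06, -0.14 and -0.17, and the remaining 3 probes ranged from -0.05 to 0.15. The 2 probes of Neat1, the scaffold of paraspeckles, gave 0.08, -0.14 and 0.25, and -0.16, -0.03 and 0.05. The 7 measured RNAs of the p53 and growth arrest list had medians of -0.09, -0.01 and 0.08. Mir22hg was the one of them beyond 2 errors, with Miglustat and D-PDMP. The 11 measured developmental and Hox locus RNAs had medians of 0.00, -0.10 and -0.01, which became 0.02, -0.19 and -0.19 after quantile normalization. Beyond 2 errors were Carmn with Miglustat, given above, and Hoxa11os, beside Hoxa11, with D-PPMP at -0.75 ± 0.33. Both measured RNAs of the X inactivation list, Jpx and Firre, stayed within 2 errors.

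By class, the 748 long noncoding probes had medians of 0.00, -0.01 and 0.07, the 141 transcribed pseudogenes -0.06, 0.00 and 0.04, and the 40 noncoding transcripts of coding genes 0.07, 0.06 and 0.06. The 37 small or structural probes had -0.14, 0.02 and -0.05, and the 549 probes with no symbol 0.04, 0.03 and 0.09. For all probes they were -0.01, 0.02 and 0.02.

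**Figure D4:**
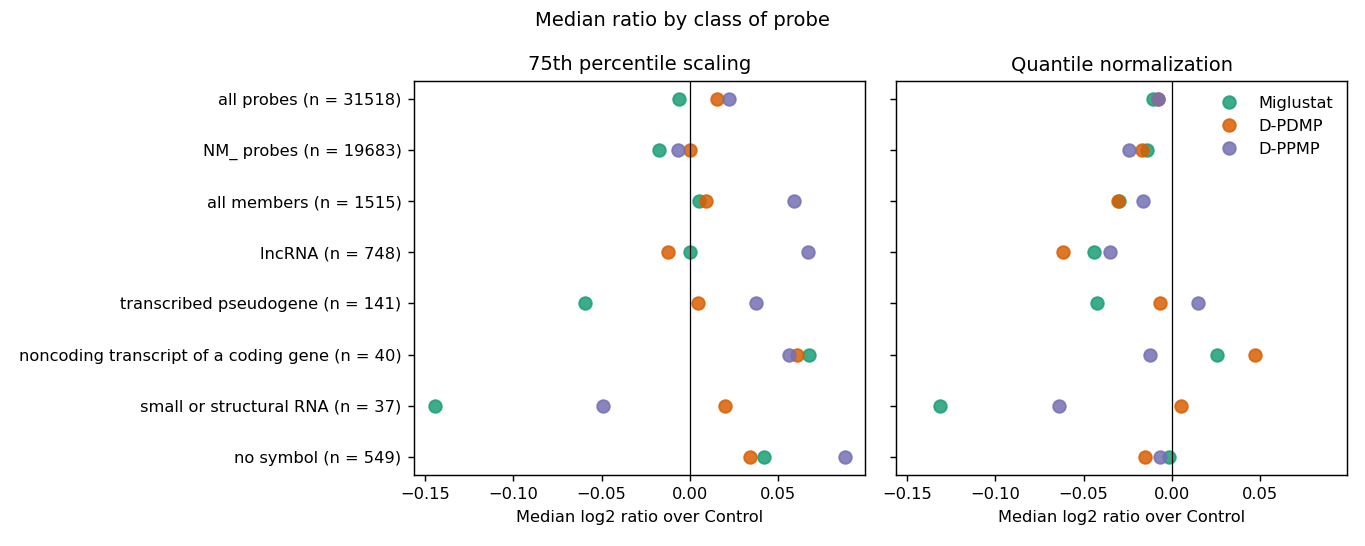
Median log2 ratio over Control (horizontal axis) for each class of probe, with 75th percentile scaling on the left and quantile normalization on the right. Points are the inhibitors; the noncoding median with D-PPMP is 0.06 on the left and -0.02 on the right.

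Antisense transcripts were set beside the gene their symbol names. There were 59 such probes for 58 antisense genes, and 48 pairs had a measured sense gene. The ratios had the same sign in 27, 27 and 22 pairs in the 3 comparisons. Across the 48 pairs Pearson's r was 0.11, -0.03 and 0.08, and Spearman's rho was 0.04, 0.18 and -0.06. Without Igf2os Pearson's r was 0.15, 0.20 and 0.19 over 47 pairs. These describe genes on the same arrays, which are not independent replicates.

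Single pairs are given with their own values. Kcnmb4os2 and its sense gene Kcnmb4, a potassium channel subunit, gave -0.62, -0.43 and -0.56 for the antisense and -0.91, -0.31 and -0.69 for the sense RNA at the brighter of its 2 probes. The other Kcnmb4 probe gave -0.70, 0.01 and -0.19. Fgf2os, near background, gave 0.47 ± 0.38, 0.32 ± 0.39 and 0.90 ± 0.36 beside 1.08, 0.61 and 0.80 for the growth factor gene Fgf2. Ptgs2os2 was lower with Miglustat, at -0.61 ± 0.21, while Ptgs2, which encodes cyclooxygenase 2, was above Control at 0.70. With D-PDMP and D-PPMP that pair gave 0.17 and 0.08 for Ptgs2os2 beside 0.83 and 0.55 for Ptgs2. Sp3os gave -0.16, -0.19 and -0.17 (each ± 0.20) beside 0.41, 0.48 and 0.50 for Sp3.

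**Figure D5:**
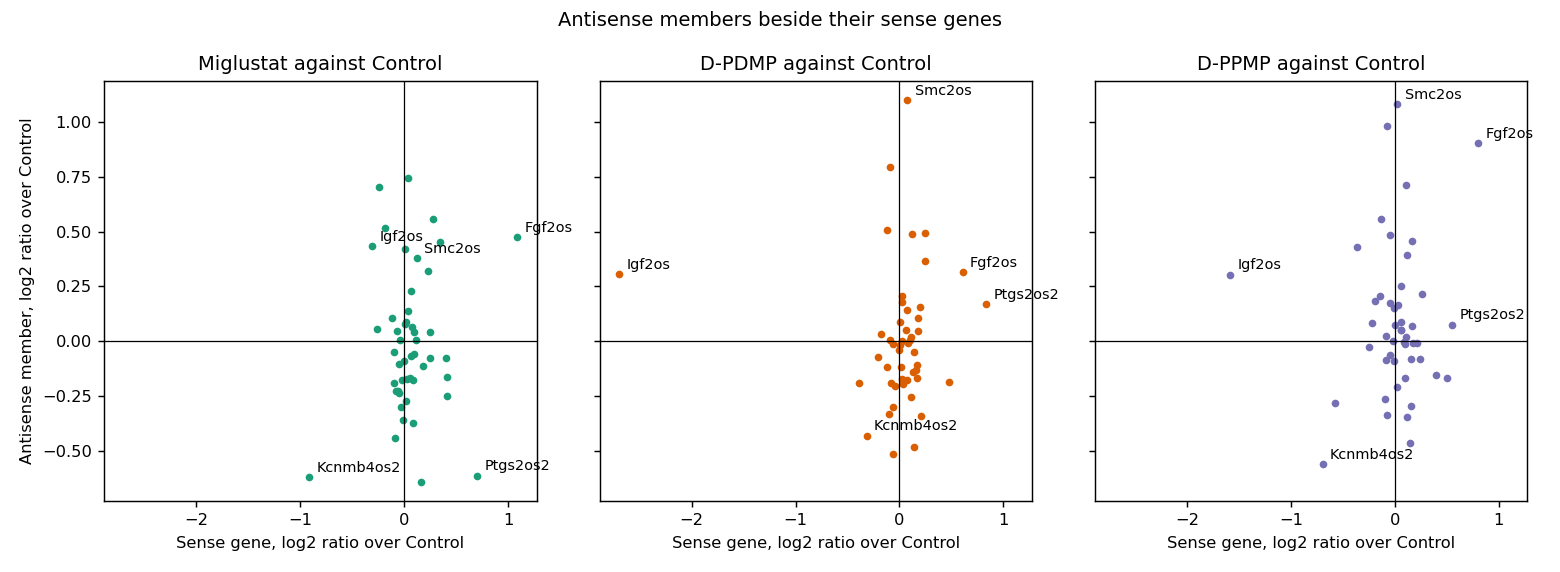
Log2 ratio over Control of each antisense transcript (vertical axis) against that of its sense gene (horizontal axis), 1 point per pair and 1 panel per inhibitor, 48 pairs. Most points lie near the vertical line at 0; Igf2os stands apart at the left with D-PDMP, where Igf2 is at -2.69 and Igf2os at 0.31.

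For 46 genes with more than 1 measured probe, the spread of the ratio between probes had a median of 0.17, 0.14 and 0.15 in the 3 comparisons. Each was below the median error of a single ratio over the 1515 probes, 0.22. The widest was 0.77, at Olfr1372-ps1 with Miglustat. Of the 5026 noncoding probes, more were above background on treated arrays than in Control: 1633 in Control, then 1777, 1823 and 1930 in the order Miglustat, D-PDMP, D-PPMP. The share of all probes above background likewise went from 57.5% in Control to 60.2%, 60.8% and 62.4%. On all 3 treated arrays but not in Control were 101 of the 5026, and in Control alone 34 of the 5026. Among all 56605 probes these numbers were 1001 and 184. The X-linked RNA Ftx was among those seen on the treated arrays only.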

How the data were processed

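Total RNA of 4 cultures was labelled with Cy3 and hybridised to one-colour Agilent arrays. The deposited scanner files hold spot intensity values from Agilent Feature Extraction 12.1.1.1, per the submitters' processing notes, with the processed signal already background-corrected and not scaled between arrays, per the file headers. The deposited series table holds the authors' log2 values, which lay within 0.02 of the scaling used here for about 99.99% of probes (medians -4.1, -4.0, -4.0 and -3.89), so their scale, centring and direction are known.

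Outlier spots were left out, log2 processed signals were averaged per probe, and the 75th percentile of each array was subtracted. Quantile and cyclic loess normalization and normexp correction (offset 50) used limma 3.58.1 in R 4.3.3; other steps used Python 3.11.15. Normexp took the median spot signal, as the files have no mean-signal column. Ratios are single differences, called at 2-fold, and no test was made. The calling step was tested on simulated data. Names came from RefSeq (GRCm38.p6) by accession; the array design names build mm9 and none of its coordinates were used.

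Named are RNAs 2-fold from Control, the 10 highest and 10 lowest per inhibitor and for all 3 together, and members of 8 gene lists. The 10 highest and 10 lowest were taken among probes with a symbol above the noncoding median level. The text leaves some out. The noncoding probes, rules and lists were chosen with earlier results of these data known. Coding genes taken as neighbours were chosen after the values were seen. A marker of the osteoblast list is not reported here.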

Additional observations from a re-analysis of the deposited data

Results flagged for a closer look

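There were 5 noncoding probes (0.0995% of 5026) well above background with all 3 inhibitors but not in Control. Their difference from Control, as defined below, was at least 2-fold each time. Among all 56605 probes 45 met the same rule (0.0795%). In the opposite direction, 11 noncoding probes (0.219%) and 52 of all probes (0.0919%) were above background in Control alone. They were at least 2-fold lower with each inhibitor by the same kind of difference. The lowest level well above background, which enters the difference, was -5.64 on the Control array. It was -6.02, -6.99 and -6.18 on the Miglustat, D-PDMP and D-PPMP arrays, so the 2 directions do not rest on like limits. The difference is the brighter level minus the higher of 2 levels on the other array. These are that array's lowest level well above background and the probe's own level. Where the probe's own level is the higher, as for Gm36299 at -5.18 in Control, the difference is the measured ratio and not a bound. The least of the 3 differences, on the log2 scale, was 1.22 for Gm20597, 1.19 for Gm36299 and 1.16 for Gm36101. It was 1.06 for Gm36236 and 1.01 for a probe without a symbol (XR_875473). With D-PPMP the difference was 2.92-fold for Gm20597 and 3.16-fold for Gm36299. The 3 inhibitors share the Control array, on which 1633 noncoding probes were above background, against 1777 to 1930 on the treated arrays. These probes enter only through the arrays on which they are high. The part of this in the result was not tested.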

How the results depend on the processing

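Counts of 2-fold noncoding probes depended on the scaling and the background. In the order Miglustat, D-PDMP, D-PPMP, 5, 5 and 10 were higher and 0, 1 and 3 lower. Quantile normalization gave 3, 1 and 4 higher and 0, 4 and 6 lower, and cyclic loess 3, 2 and 3 higher and 0, 5 and 5 lower. Normexp correction, whose offset of 50 exceeds the median noncoding signal on each array, gave 0 in every case. So did the smaller set of 393 probes above the median level of all probes. The 75th percentile over probes above background on all 4 arrays gave 3 higher with D-PDMP. NR_ accessions alone, a smaller set of 874 probes, gave 2 higher with D-PDMP, and 3 higher and 1 lower with D-PPMP. A wider set took all noncoding probes above background on at least 1 array of a pair. Where only 1 array was above it, the difference defined above was used, set to 0 if the other array came out higher. This raised the set to 1856, 1902 and 1990 probes. Of these, 39, 46 and 75 were higher and 28, 33 and 24 lower. The authors' table and 1 probe per gene kept every count within 1.5 times. The medians over all noncoding probes moved by at most 0.1 under each alternative; the medians of the imprinted and the developmental and Hox locus lists moved further under quantile normalization, as given with them.

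Of 438 ratios of named RNAs, none moved beyond its error under quantile normalization, cyclic loess, the other percentile or the authors' table, though 16, 19, 6 and 1 changed sign. Normexp moved 109 beyond it and changed the sign of 41, and a probe without a symbol (XR_168585, D-PDMP) went from 1.16 to -0.0001. H19 was -0.38 with D-PDMP and -0.30 with D-PPMP under normexp. No paired analysis was possible because each group has 1 array. All 21 probes called lie at or below the median level of all probes, where signal over background is lower.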
